A study of Homo sapiens with 12 samples.

Results

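Both control groups of an RNA-seq study of WNT signalling in HT-29 cells were compared with each other: cells that received a GFP open reading frame and cells that carried the control hairpin shNT1. HT-29 is an established human colon adenocarcinoma line, labelled as APC mutant. The 2 groups hold 6 of the study's 12 libraries, 3 each, and the other 6 come from cells given a CTNNB1 open reading frame or a hairpin against APC (shAPC). All cells were infected with lentivirus. Those with an open reading frame (ORF) were collected 2 days after infection, and those with a hairpin 1 day after induction with 2 µM doxycycline. Vector, collection day and doxycycline therefore differ together between GFP and shNT1 and cannot be told apart, and neither group is an untreated culture. Of the 25528 entries in the deposited expression table, 11659 had a mean of at least 1 TPM over the 6 control libraries and were compared. TPM is a transcript abundance per length, scaled to the same total in each library, and the sequencing depth behind it is unknown. Differences are GFP minus shNT1 in log2(TPM + 1), so that a positive value is higher in GFP, and the 1 added to each value understates differences of weakly expressed genes. A gene was called when its limma p, adjusted by Benjamini-Hochberg over all genes compared, was below 0.05. The labels do not say whether replicates were separate cultures, so p-values measure only the spread between these samples, which may be technical.

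Several responses that a cell can mount to a vector, a foreign RNA or a drug have well known gene sets. Type I and III interferons, or RNA sensors such as the DDX58 product RIG-I, act through transcription factors such as STAT2 and IRF9 on promoters that carry an interferon-stimulated response element. NRF2, encoded by NFE2L2, is held back by KEAP1 and raises glutathione and thioredoxin enzymes through antioxidant elements, while metallothioneins are induced by zinc through MTF1. The proteasome is the protease that degrades ubiquitin-tagged proteins, including beta-catenin.

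Between 14756 and 15948 entries per control library were above 0 TPM, and the 10 most abundant genes held 9.07% to 9.8% of the total. Pearson correlations of log2(TPM + 1) over the genes compared were 0.9912 to 0.9971 within the groups and 0.9873 to 0.9907 between them. The epithelial markers EPCAM, KRT8, KRT18, CDH1, VIL1 and LGALS4 were abundant in all 6 libraries, whereas CDX1, CDX2 and CDH17 were below 1 TPM in each. Of 15 markers of fibroblasts, endothelium, blood, liver and nerve cells, CD68 alone passed the filter, and CDH5, CD3E, ALB and RBFOX3 were at 0 in all 6. Summed over the 15 markers the level was 27.3 to 28.6 TPM in GFP and 14.2 to 16.3 TPM in shNT1, nearly all of it CD68, which encodes a lysosomal protein. The third shNT1 library needed the largest scaling factor of the 6, 1.05 against 0.971 to 1.01 in the others. Where leaving it out moved the larger count of calls given here for a gene list by over 1.5 times, the count without it is given too.

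Of the 11659 genes, 3859 (33.1%) were called between the control groups. GFP was the higher group for 1157 (9.92%) and shNT1 for 2702 (23.2%). The uneven split depended on the scaling: the median difference over all genes was -0.06 as deposited and 0.00 after median-ratio scaling, which called 3927 genes (33.7%), 2035 (17.5%) higher in GFP and 1892 (16.2%) higher in shNT1. GFP was thus the higher group for 30% of calls as deposited and 51.8% after that scaling. Quantile normalization gave 48.5%. A set of 3048 genes was called under both of the first 2 scalings, and each of them kept its direction. Most differences were small, with a median size of 0.299 among the calls, and 99 genes (0.849%) were called with at least a 2-fold difference, 36 higher in GFP and 63 higher in shNT1. The 3 GFP and 3 shNT1 values did not overlap for 5662 genes (48.6%). Single libraries mattered: 2375 genes were called without GFP replicate 2, 765 of them higher in GFP and 1610 higher in shNT1, and 1794 were called higher in shNT1 without GFP replicate 1.

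GPX3, which encodes a secreted glutathione peroxidase that removes peroxides, had the largest difference toward GFP among genes with a mean of at least 5 TPM. It measured 120.1, 114.7 and 117.6 TPM in the GFP libraries and 23.8, 22.4 and 23.9 TPM in the shNT1 libraries. The GFP mean was 5.03-fold that of shNT1, and the groups were far from overlapping (difference 2.28, SE 0.04, adjusted p = 5.6e-08). IFI27, an interferon-induced mitochondrial protein, had the largest difference toward shNT1. Its level was 1.46, 1.86 and 1.95 TPM in GFP and 16.7, 15.9 and 13.1 TPM in shNT1. All 3 shNT1 libraries were far above all 3 GFP libraries (difference -2.56, SE 0.11, adjusted p = 9.4e-06). Among the 12 largest differences toward shNT1, 7 were of genes known as interferon-induced: IFI27, IFITM3, DDX60, IFI6, IRF9, OASL and IFIT2. The 12 toward GFP held no such gene and included the NRF2-regulated OSGIN1, the biliverdin reductase BLVRB and the cell adhesion proteins CEACAM5 and CEACAM6.

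**Figure D1:**
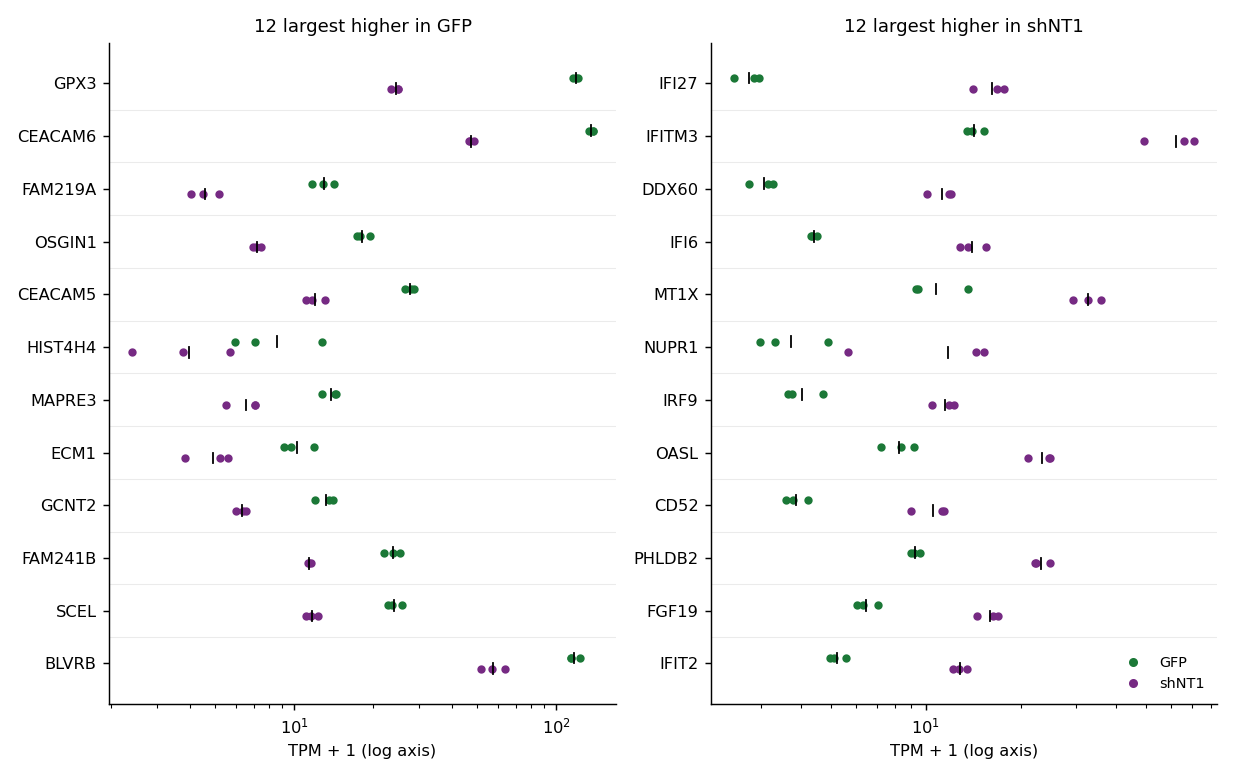
Levels of the 12 genes with the largest difference in each direction, as TPM + 1 on a log axis, with a point per library and a black bar at the group mean (GFP green, shNT1 purple, 3 libraries each). No gene overlaps between the groups, which the choice of these genes required. The GFP mean of GPX3 is 118 TPM beside 23.4 TPM for shNT1. IFI27 lies near 1.75 TPM in GFP and 15.2 TPM in shNT1.

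Interferon-stimulated genes were the clearest group higher in the hairpin control. Of 48 listed genes in the table, 38 were compared, and 31 of these were called higher in shNT1 and none higher in GFP, against 23.2% and 9.92% of all genes. Their median difference was -0.50, where that of all genes was -0.06. After median-ratio scaling 27 were called higher in shNT1 and 1, LGALS3BP, higher in GFP, with a median of -0.45. ISG20, MX1, OAS2 and DHX58 passed the filter through shNT1 alone, being below 1 TPM on average in GFP, and among the other 34 genes 27 were called higher in shNT1, beside 22.8% of all genes at 1 TPM or more in both groups. Without the third shNT1 library 31 were again called higher in shNT1, and leaving out any 1 of the 6 libraries gave 25 to 31. The genes are shown with 4 of their promoters, all of which hold matches to a sequence element that not every promoter of the group holds. These stretches are from RefSeq (GRCh38.p14), end at the base before the annotated start and are written along the gene's strand. Capitals mark matches to the core of the interferon-stimulated response element, searched as GAAA, NN (a pair of bases of any kind) and GAAA in a row on both strands with overlapping matches counted separately.
IFI27, plus strand of chr14:94110586-94110735: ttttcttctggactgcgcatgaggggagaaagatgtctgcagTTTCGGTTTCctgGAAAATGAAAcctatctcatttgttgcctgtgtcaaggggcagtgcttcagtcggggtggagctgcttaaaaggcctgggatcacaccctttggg
IFI6, minus strand of chr1:27672193-27672352: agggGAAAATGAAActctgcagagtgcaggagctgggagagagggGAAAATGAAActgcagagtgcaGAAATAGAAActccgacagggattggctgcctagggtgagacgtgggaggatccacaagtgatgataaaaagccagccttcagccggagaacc
DDX60, minus strand of chr4:168318753-168318902: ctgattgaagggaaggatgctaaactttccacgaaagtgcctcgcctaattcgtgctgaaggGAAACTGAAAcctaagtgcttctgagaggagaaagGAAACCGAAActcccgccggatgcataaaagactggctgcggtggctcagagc
IFIT3, plus strand of chr10:89327837-89327996: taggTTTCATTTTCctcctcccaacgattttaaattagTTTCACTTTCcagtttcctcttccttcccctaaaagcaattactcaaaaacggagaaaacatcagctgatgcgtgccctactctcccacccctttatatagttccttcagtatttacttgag

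The RefSeq table held a promoter for 29 of the 38 genes compared. The core occurred within 250 bases before the start in 16 of the 29 (55.2%), against 2.25% of the 8854 promoters of all genes compared and 3.07% of the 27305 promoters in the table. A match is a description of the sequence and not a bound site. The list is of genes known to be induced by interferon, which acts through this element. The share therefore does not bear on the difference between GFP and shNT1. IFI6 had 3 matches, and IFI27, DDX60 and IFIT3 had 2 each. Promoters of IRF9, STAT2, HERC6 and TRIM25 held none in this window.

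Among the effectors of this group, IFITM3, a membrane protein that blocks virus entry and was not on the list, measured 12.5, 14.3 and 12.98 TPM in GFP and 65.0, 70.1 and 48.4 TPM in shNT1. The third shNT1 library was lowest of its group and still above every GFP library (difference -2.11, SE 0.12, adjusted p = 1.9e-05). DDX60, a helicase cofactor of RIG-I, was at 2.16, 1.75 and 2.27 TPM in GFP and 10.99, 9.07 and 10.8 TPM in shNT1. IFI6, a survival protein of mitochondria and the endoplasmic reticulum, was at 3.36, 3.52 and 3.32 TPM in GFP and 14.5, 12.6 and 11.8 TPM in shNT1. Neither gene overlapped between the groups (differences of -1.88 and -1.66). The IFIT genes, whose products bind viral RNA, differed by -1.18 for IFIT1, -1.30 for IFIT2 and -1.10 for IFIT3. OASL, a relative of the 2'-5' oligoadenylate synthetases, differed by -1.51, IFI44 by -1.22 and the ubiquitin ligase HERC6 by -1.34. At higher levels, the tetherin gene BST2 averaged 69.2 ± 7.38 TPM in GFP and 113.1 ± 1.57 TPM in shNT1 (SD, n = 3), and ISG15, the ubiquitin-like modifier, 48.1 ± 6.02 and 74.5 ± 12.1 TPM.

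The sensors and transcription factors of the pathway were unequal. IRF9 averaged 3.04 ± 0.591 TPM in GFP and 10.5 ± 0.953 TPM in shNT1 (SD, n = 3; difference -1.52, adjusted p = 5.8e-05). DDX58 differed by -0.80 and IFIH1, which encodes the sensor MDA5, by -0.53, both called. IRF7, in contrast, was at 2.87 ± 0.316 TPM in GFP and 3.25 ± 0.243 TPM in shNT1 (adjusted p = 0.3). STAT2 (difference -0.28) and IRF1 (difference -0.20) were called with all 6 libraries. STAT2 lost its call when GFP replicate 2 (difference -0.21, adjusted p = 0.083), GFP replicate 3 or shNT1 replicate 1 was left out, and IRF1 when GFP replicate 2 or 3 or shNT1 replicate 1 or 2 was left out (adjusted p of 0.051 to 0.083) or after median-ratio scaling (adjusted p = 0.087). The deposited tables pair IFI27 with a gene identifier outside the primary assembly annotation of GENCODE v29, and IFITM and IFIT genes have close copies, so reads may have been divided among copies.

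In the 2 groups with a perturbed gene, the mean of the interferon-stimulated genes lay between the controls. The mean of log2(TPM + 1) over the 38 genes was 3.33 ± 0.0433 in GFP, 3.64 ± 0.108 in CTNNB1, 3.74 ± 0.0667 in shAPC and 4.02 ± 0.0254 in shNT1 (SD, n = 3). CTNNB1 and shAPC did not differ beyond their spread in that order. For IFI27 the levels were 1.75 TPM in GFP, 3.80 TPM in CTNNB1, 6.97 TPM in shAPC and 15.2 TPM in shNT1, and IFIT3 stood at 6.56, 13.3, 11.5 and 15.2 TPM. Not every gene lay between the controls. STAT2 averaged 13.3 TPM in shAPC and 12.2 TPM in shNT1, and IRF1 averaged 14.3 TPM in CTNNB1 and 13.9 TPM in shNT1. Of the 37 list members compared in both pairs of groups, 24 had a difference between GFP and shNT1 that was unlike the difference between CTNNB1 and shAPC by the test of that contrast, where 16.1% of all genes did.

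**Figure D2:**
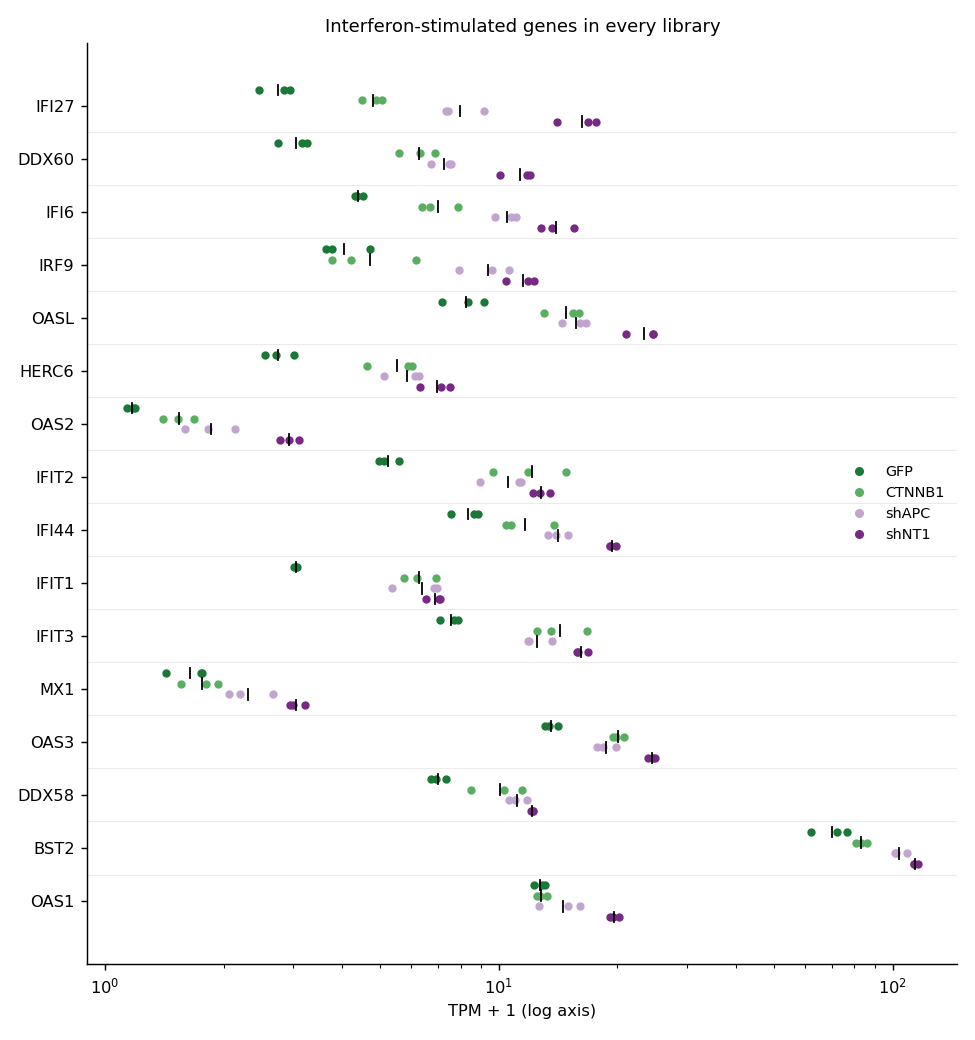
Levels of the 16 interferon-stimulated genes of the list with the largest called differences, in all 12 libraries, as TPM + 1 on a log axis with a black bar at each group mean (GFP dark green, CTNNB1 light green, shAPC light purple, shNT1 dark purple). Every gene has its lowest group mean in GFP and its highest in shNT1, with IFI27 spanning 1.75 to 15.2 TPM.

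Proteasome subunits were the most uniform group on the other side. All 31 subunits compared were called higher in GFP as deposited, after median-ratio scaling and with any 1 of the 6 libraries left out, and in all 31 the libraries did not overlap, against 9.92% of genes called higher in GFP and 48.6% without overlap. Their median difference was 0.63 (0.70 after scaling), within a narrow range from 0.33 for PSMD7 to 0.84 for PSMB6. PSMB6, a catalytic beta subunit of the core particle, measured 301.5, 288.6 and 313.1 TPM in GFP and 168.6, 170.2 and 164.5 TPM in shNT1. Each GFP library was well above each shNT1 library (difference 0.84, SE 0.04, adjusted p = 9.4e-06). PSMD11 and PSMD13, of the regulatory lid, differed by 0.83 and 0.82, and PSMC4, an ATPase of the base, and PSMB2, another core subunit, by 0.82 each. The higher level in GFP covered core, base and lid. PSMA7, an alpha ring subunit and 1 of the more abundant ones, stood at 1506, 1526 and 1465 TPM in GFP and 1001, 983.0 and 923.0 TPM in shNT1. Summed over the 31 genes, the level was 12460 to 12830 TPM in the GFP libraries and 8055 to 8310 TPM in the shNT1 libraries.

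GFP also stood apart from both perturbed groups for this complex. The mean of log2(TPM + 1) over the 31 subunits was 8.44 ± 0.0221 in GFP, 7.93 ± 0.0273 in CTNNB1, 7.75 ± 0.006 in shAPC and 7.81 ± 0.0253 in shNT1 (SD, n = 3). Between CTNNB1 and shAPC 14 of the 31 subunits were called higher in CTNNB1, with a median of 0.17, beside 16.2% of all genes. For 29 of the 31 the difference between the control groups was larger by the test of the contrast, which 16.1% of all genes passed. PSMD7 was 1 of the 2 subunits that did not pass it (contrast 0.13, adjusted p = 0.26).

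NRF2 target and glutathione genes were the second large group higher in GFP. Of 28 compared, 23 were called higher in GFP, with or without scaling, and 1, NFE2L2 itself, lower. Of all genes, 9.92% were called higher in GFP as deposited and 17.5% after scaling. The median difference was 0.48 (0.55 after scaling), and 21 to 23 were called higher in GFP with 1 library left out. OSGIN1, an oxidative stress-induced growth inhibitor, was at 16.8, 16.4 and 18.4 TPM in GFP and 5.99, 6.15 and 6.50 TPM in shNT1. Its GFP levels were 2.76-fold higher without overlap (difference 1.33, SE 0.06, adjusted p = 9.5e-06). AKR1B10, an aldo-keto reductase and one of the most abundant members, measured 527.6, 506.1 and 507.8 TPM in GFP and 255.3, 249.1 and 282.4 TPM in shNT1. GCLM, the modifier subunit of the enzyme that makes glutathione's precursor, measured 85.0, 76.4 and 77.0 TPM in GFP and 38.5, 37.4 and 45.2 TPM in shNT1. The GFP mean was 1.96-fold that of shNT1 for AKR1B10 and 1.97-fold for GCLM, with no overlap for either (differences 0.97 and 0.96). SRXN1, which repairs oxidised peroxiredoxins, differed by 0.93, the thioredoxin reductase TXNRD1 by 0.62 and ferritin heavy chain FTH1 by 0.31. AKR1C1 (0.89) and AKR1C2 (0.95) are near-identical copies whose reads may have been shared.

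The members of the redox list did not all move. NQO1, a quinone reductase often used as an NRF2 marker, was at 521.0, 494.8 and 502.8 TPM in GFP and 523.0, 517.1 and 536.9 TPM in shNT1. The groups overlapped (difference -0.05, adjusted p = 0.28). SLC7A11, the cystine importer, was at 125 ± 3.61 and 124 ± 13.5 TPM (SD, n = 3; adjusted p = 0.89), and GSS, which completes glutathione synthesis, had a difference of -0.12 (adjusted p = 0.06, and 0.025 without shNT1 replicate 3). NFE2L2 fell by 0.21 on the log2 scale, from 122 ± 2.12 TPM in shNT1 to 106 ± 1.25 TPM in GFP, while KEAP1, its inhibitor, was higher in GFP by 0.42 and SQSTM1, an autophagy receptor that binds KEAP1, by 0.67. GCLM is shown because its promoter carries an antioxidant element core, searched as TGACNNNGC on both strands and marked in capitals, within the 60 bases before the start in RefSeq (GRCh38.p14).
GCLM, minus strand of chr1:93909431-93909490: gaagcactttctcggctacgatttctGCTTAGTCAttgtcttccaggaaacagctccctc
Within 250 bases before the start, 4 of 18 listed redox genes with a promoter in the table (22.2%) and 3 of 26 proteasome genes (11.5%) had a match, beside 12.5% of all genes compared.

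**Figure D3:**
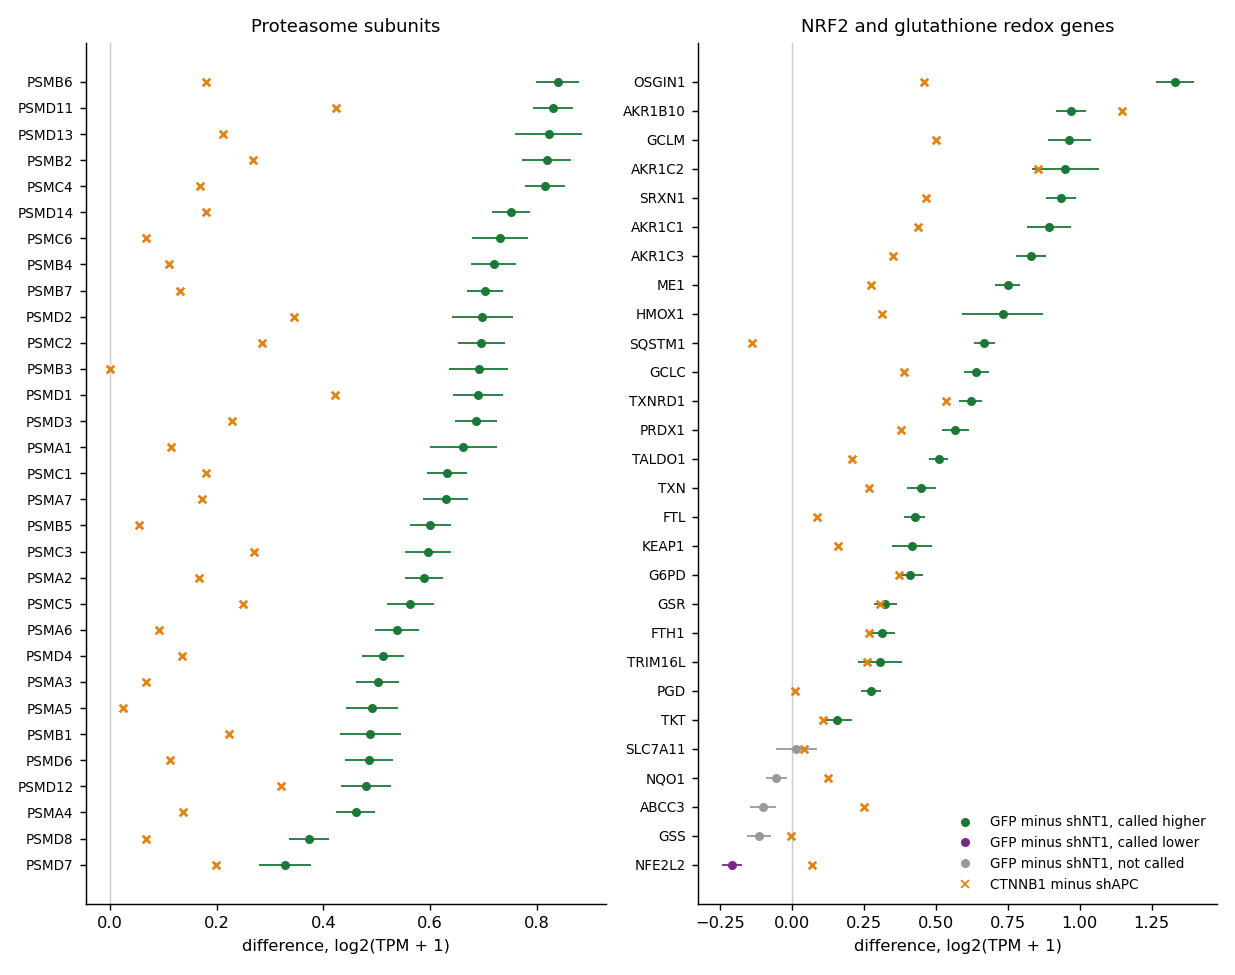
Differences in log2(TPM + 1) for the 31 proteasome subunits and the 28 NRF2 and glutathione genes. Circles with bars are GFP minus shNT1 with the limma standard error, coloured by call, and crosses are CTNNB1 minus shAPC. All proteasome circles lie between 0.33 and 0.84, and the redox genes run from -0.21 for NFE2L2 to 1.33 for OSGIN1.

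Other peroxide and heme enzymes moved singly rather than as groups. Of 15 peroxidases, peroxiredoxins, dismutases and related enzymes, 5 were called higher in GFP (3 without GFP replicate 2 or shNT1 replicate 1) and 2 higher in shNT1, with a median of 0.03. GPX3 was 1 of the 5, and SOD3, the extracellular superoxide dismutase, was 1 of the 2, at 1.20 ± 0.156 TPM in GFP and 2.95 ± 0.451 TPM in shNT1 (SD, n = 3). Of 16 heme genes 3 were called in each direction. Of all genes, 9.92% were called higher in GFP and 23.2% higher in shNT1. BLVRB, which reduces biliverdins and flavins, averaged 115.9 ± 5.33 TPM in GFP and 56.4 ± 5.99 TPM in shNT1 (difference 1.03, adjusted p = 4.8e-05), and the heme oxygenase gene HMOX1 averaged 6.96 ± 0.734 and 3.84 ± 0.982 TPM (difference 0.73). The GPX3 level in CTNNB1, 31.4 ± 1.22 TPM, and in shAPC, 26.7 ± 2.49 TPM, was close to that of shNT1 and far from that of GFP. BLVRB likewise stood at 47.5 ± 2.96 and 41.9 ± 0.49 TPM in those groups.

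Metallothioneins are small cysteine-rich proteins that bind zinc and copper, and MT1X, MT2A and MT1E were higher in the hairpin control. They belong to the metal homeostasis list. Of its 20 genes, 4 were called higher in GFP and 8 higher in shNT1, against 9.92% and 23.2% of all genes. Among the 18 at 1 TPM or more in both groups the counts were 4 and 6, beside 9.92% and 22.8% of all genes at that level. The metallothioneins are described apart because of their values. MT1X measured 12.6, 8.32 and 8.42 TPM in GFP and 28.4, 31.7 and 34.9 TPM in shNT1. MT2A measured 25.6, 31.6 and 33.1 TPM in GFP and 63.2, 65.8 and 86.0 TPM in shNT1. Neither overlapped between the groups (differences of -1.62 and -1.22, adjusted p = 0.00013 and 0.00029). MT1E, at the highest level of the family, averaged 128.2 ± 12.5 TPM in GFP and 280.7 ± 32.4 TPM in shNT1 (SD, n = 3). MT1G and MT1F were below 1 TPM in each GFP library, where their values included 0, and averaged 5.34 ± 4.03 and 2.27 ± 0.668 TPM in shNT1. They passed the filter through shNT1 alone, so their differences are a description. MT1A was not called (difference -0.48, adjusted p = 0.45) and was at 1.34, 1.57 and 8.08 TPM in the shNT1 libraries. Members of this family are similar in sequence, so that their separate levels are uncertain.

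Both hairpin groups had more metallothionein RNA than both ORF groups. The summed level of the family was 155.4 to 182.8 TPM in GFP, 241.3 to 260.0 TPM in CTNNB1, 358.9 to 457.5 TPM in shNT1 and 410.5 to 462.4 TPM in shAPC. Between CTNNB1 and shAPC the differences were -1.29 for MT1X, -0.87 for MT2A and -0.65 for MT1E, all called. The difference of MT1E was unlike between the pairs of groups (contrast -0.47, adjusted p = 0.015). Elsewhere on the metal list, the zinc exporter SLC30A1 was higher in shNT1 (difference -0.43, adjusted p = 0.0067), the transferrin receptor TFRC higher in GFP (difference 0.26), and MTF1 was at 13.3 ± 0.145 TPM in GFP and 13.2 ± 0.258 TPM in shNT1 (adjusted p = 0.84). TFRC lost its call after quantile normalization.

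Targets of ATF4, the transcription factor of the amino acid and stress response, had more calls toward shNT1 than toward GFP. Of 30 compared, 15 were called higher in shNT1 and 4 higher in GFP, with a median of -0.25 (11 and 4 after median-ratio scaling). Over all genes the shares were 23.2% and 9.92% (16.2% and 17.5% after that scaling). Without GFP replicate 1 the count toward shNT1 was 10. ATF4 itself averaged 248 ± 2.47 TPM in GFP and 319 ± 23.5 TPM in shNT1 (SD, n = 3; difference -0.36, adjusted p = 0.0017). The stress regulator NUPR1 was at 2.31, 1.97 and 3.90 TPM in GFP and 14.2, 13.4 and 4.66 TPM in shNT1. DDIT4, an inhibitor of mTORC1, was at 13.4, 12.3 and 13.6 TPM in GFP and 45.2, 37.8 and 18.4 TPM in shNT1. In both the third shNT1 library was well below the others of its group yet above all GFP libraries. The differences were -1.56 for NUPR1 and -1.22 for DDIT4 with all libraries, and -2.03 and -1.59 without that library, when 22 list members were called higher in shNT1. CHAC1, which degrades glutathione, had a difference of -1.17 (adjusted p = 0.028), and lost its call without GFP replicate 1 or 3 or shNT1 replicate 1 or 2 (adjusted p of 0.074 to 0.093). JDP2, a repressor of the AP-1 family, differed by -0.97. The glutamine transporter SLC1A5 went the other way, with a difference of 0.33 (adjusted p = 0.00046). Of 27 genes of nutrient signalling to mTORC1, 12 were called higher in shNT1 (7 without GFP replicate 1, 6 without GFP replicate 2 or 3) and 4 higher in GFP. DEPTOR, which encodes an mTOR-binding inhibitor, was the largest at 4.47 ± 0.506 TPM in GFP and 11.2 ± 0.192 TPM in shNT1 (difference -1.15, adjusted p = 3.8e-05).

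**Figure D4:**
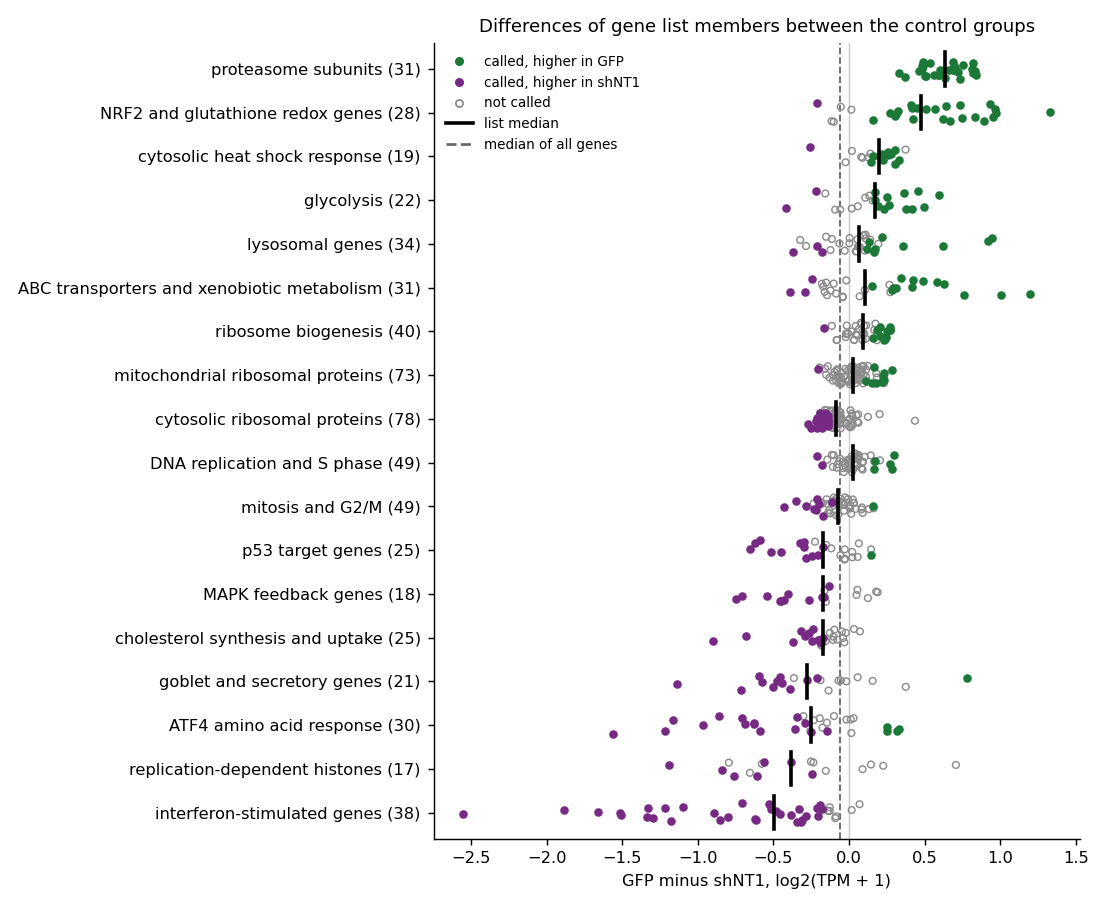
Differences between GFP and shNT1 in log2(TPM + 1) for the members of 18 gene lists, with the number of genes compared in brackets, a point per gene, a black bar at the list median and a dashed line at the median of all genes, -0.06. Proteasome (median 0.63) and redox genes (0.48) lie to the right, and interferon-stimulated genes (-0.50) to the left.

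Metabolic genes split by pathway. Of all genes, 9.92% were called higher in GFP and 23.2% higher in shNT1 (17.5% and 16.2% after scaling). Of 22 glycolysis genes, 12 were called higher in GFP (15 after scaling) and 2 higher in shNT1, with a median of 0.17. The enzymes with the largest differences were aldolase ALDOA, at 703 ± 7.94 TPM in GFP and 464 ± 12.3 TPM in shNT1 (SD, n = 3; difference 0.60), phosphofructokinase PFKP (0.50), GAPDH (0.46) and pyruvate kinase PKM (0.42). ALDOC, another aldolase, was higher in shNT1 (difference -0.42). Cholesterol synthesis and uptake genes had 12 of 25 called higher in shNT1 (9 after scaling, 7 without GFP replicate 2) and none higher in GFP, with 1 after scaling. The sterol reductase TM7SF2 differed by -0.68 and the sterol sensor partner INSIG1 by -0.37. Of 34 lysosomal genes, 9 were called higher in GFP (17 after scaling) and 3 higher in shNT1. CTSD, the aspartic protease of lysosomes, measured 586.2, 585.6 and 597.8 TPM in GFP and 296.2, 320.3 and 316.8 TPM in shNT1. Every GFP library exceeded every shNT1 library (difference 0.92, adjusted p = 9.4e-06), and alpha-galactosidase GLA (0.95) and the saposin precursor PSAP (0.62) moved with it, as did the marker CD68 (0.92). NPC2, a cholesterol carrier of lysosomes, was higher in shNT1 (-0.37). Heat shock genes had 11 of 19 called higher in GFP and 1 higher in shNT1, with HSP90AA1 at 1388 ± 26.3 TPM in GFP and 1125 ± 72.1 TPM in shNT1 (difference 0.30). That count was 6 without GFP replicate 2 or shNT1 replicate 2, 5 without GFP replicate 3 or shNT1 replicate 1, and 16 without shNT1 replicate 3. Of 31 ABC transporters and xenobiotic enzymes, 13 were called higher in GFP and 3 higher in shNT1. Among the 29 at 1 TPM or more in both groups the counts were 12 and 3. The heme-linked transporter ABCB6 differed by 1.01 and the drug efflux pump ABCG2 by 0.63.

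Growth factor genes with the largest proportional differences were 2 EGF family ligands at low levels. NRG4, a ligand of ERBB4, was at 5.32, 4.11 and 5.23 TPM in GFP and 0.307, 0.318 and 0.225 TPM in shNT1. EGF was at 3.72, 4.11 and 4.50 TPM in GFP and 0.430, 0.589 and 0.566 TPM in shNT1. Both were below 1 TPM in each shNT1 library and above 3 TPM in each GFP library, and they passed the filter on the mean level through GFP alone. In CTNNB1 and shAPC both ligands averaged below 1 TPM, so GFP was the only group of the 4 above that level. Feedback genes of MAPK signalling were lower in GFP, with 11 of 18 called higher in shNT1 and none higher in GFP (8 and 1 after scaling). The shares of all genes were 23.2% and 9.92% (16.2% and 17.5% after scaling). The phosphatase DUSP6 averaged 40.4 ± 2.93 TPM in GFP and 66.6 ± 1.07 TPM in shNT1 (SD, n = 3; difference -0.71, adjusted p = 6.7e-05), the transcription factor ETV1 differed by -0.75 and the inhibitor SPRY4 by -0.54. FGF19, an intestinal hormone that lowers bile acid synthesis, was at 5.47 ± 0.517 and 14.9 ± 1.27 TPM (difference -1.30). Targets of TGF-beta and BMP signalling had 7 of 17 called higher in shNT1 (4 without GFP replicate 1 or 2) and 2 higher in GFP. Inhibitors of differentiation went opposite ways, with ID2 at 59.4 ± 1.1 TPM in GFP and 121 ± 13.8 TPM in shNT1 (difference -1.01) and ID1 higher in GFP (0.41). The matrix protein TGFBI differed by -0.92.

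Genes of the colonic epithelium changed in both directions. CEACAM6, an adhesion protein of the carcinoembryonic antigen family, measured 136.5, 136.3 and 131.7 TPM in GFP and 46.0, 45.4 and 47.5 TPM in shNT1. Replicates were tight and the groups 2.91-fold apart (difference 1.52, SE 0.04, adjusted p = 3.4e-07). CEACAM5 differed by 1.21, and CEACAM1, another member of the family, by -0.61. CEACAM5 and CEACAM6 are close copies, and both were also higher in CTNNB1 than in shAPC, by 1.41 and 1.73. Goblet and secretory genes had 11 of 21 called higher in shNT1 (10 after scaling) and 1, the trypsin inhibitor SPINK1, higher in GFP (difference 0.78). In bulk RNA, fewer cells of a type and less RNA per cell cannot be told apart. The secreted lectin REG4 averaged 58.0 ± 1.98 TPM in GFP and 96.1 ± 7.46 TPM in shNT1 (SD, n = 3; difference -0.72). The goblet peptide SPINK4 was at 4.27, 1.54 and 4.61 TPM in GFP and 11.6, 9.0 and 5.40 TPM in shNT1, with its highest GFP value close under its lowest shNT1 value (difference -1.14, adjusted p = 0.028). It lost its call without GFP replicate 2 (-0.77, adjusted p = 0.062) or shNT1 replicate 1 or 2. Beside 9.92% of all genes called higher in GFP and 23.2% higher in shNT1, 5 of 18 enterocyte genes were called higher in GFP and 8 higher in shNT1, among the latter the annexin ANXA13, at 5.58 ± 0.486 and 12.2 ± 0.189 TPM. Of 29 keratin and junction genes 10 were called higher in GFP, such as KRT15 (0.73), and 7 higher in shNT1, such as KRT17 (-0.92). WNT target genes, the readout of the parent study, had 4 of 17 called higher in GFP and 5 higher in shNT1 (2 without GFP replicate 1 or 2), the latter close to the share of all genes. AXIN2, a feedback inhibitor, was higher in GFP by 0.38 and WNT11, a ligand, by 0.76, while the transcription factor SP5 was higher in shNT1 (-0.71).

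The genes targeted in the other groups were near equal in the controls. APC was at 14.1, 13.8 and 14.2 TPM in GFP and 15.8, 16.2 and 17.3 TPM in shNT1. The groups did not overlap, but the difference of -0.21 (adjusted p = 0.018) lost its call without GFP replicate 1 (adjusted p = 0.055) or GFP replicate 2 (adjusted p = 0.072). CTNNB1 was at 146.3 ± 2.87 and 150.4 ± 5.51 TPM (SD, n = 3; adjusted p = 0.48). In the targeted groups, APC was at 6.59, 5.91 and 5.48 TPM in shAPC, below every control library. CTNNB1 was at 164.6, 159.6 and 156.2 TPM in the CTNNB1 libraries and averaged 150.1 ± 8.35 TPM in shAPC, and it was not called between these groups (difference 0.09, adjusted p = 0.28).

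Lists of the ribosome and the cell cycle had small medians, and their counts depended on the scaling and on single libraries. Of 78 cytosolic ribosomal protein genes 20 were called higher in shNT1 as deposited and 4 after median-ratio scaling, with medians of -0.09 and -0.02. Of all genes, 23.2% were called higher in shNT1 as deposited and 16.2% after scaling. The 20 (25.6%) lie near that share and the 4 lie below it. Without the third shNT1 library 38 of the 78 were called higher in shNT1, and 6 to 10 without GFP replicate 1, 2 or 3 or shNT1 replicate 1. Of 73 mitochondrial ribosomal protein genes 9 were called higher in GFP (22 after scaling, 18 without shNT1 replicate 3), and of 40 ribosome biogenesis genes 11 (24 after scaling, 22 without shNT1 replicate 3), where all genes had 9.92% as deposited and 17.5% after scaling. Of 49 replication genes 5 were called higher in GFP and 2 higher in shNT1. The 5 became 14 after scaling, 11 without shNT1 replicate 3, 3 without shNT1 replicate 1 and 2 without GFP replicate 1 or 3 or shNT1 replicate 2. Of 49 mitosis genes 1 was called higher in GFP (2.04%) and 9 higher in shNT1 (18.4%), both below the shares of all genes. Medians of these lists lay between -0.09 and 0.09. Replication-dependent histone genes had 7 of 17 called higher in shNT1 (4 without GFP replicate 2 or 3), with HIST1H2AC at 4.31 ± 2.01 and 10.6 ± 0.894 TPM (SD, n = 3; difference -1.19). HIST4H4 was among the largest differences toward GFP (1.12, adjusted p = 0.035) but varied from 4.95 to 11.8 TPM within GFP. Its call was lost without GFP replicate 1 (0.80, adjusted p = 0.11), GFP replicate 3, shNT1 replicate 2 or shNT1 replicate 3. These transcripts lack poly(A) tails and the kit selects mRNA, so their counts depend on the selection. Of 5 nuclear-retained RNAs 3 were called higher in shNT1, including NEAT1 (-0.42), which lost its call after quantile normalization or without the filter. Of 25 p53 targets 12 were called higher in shNT1 (7 after scaling, 7 without GFP replicate 1 or shNT1 replicate 2, 6 without GFP replicate 2) and 1 higher in GFP. Among the 24 at 1 TPM or more in both groups the counts were 11 and 1.

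Several smaller lists had shares of calls to be read against the 9.92% of all genes called higher in GFP and the 23.2% called higher in shNT1. Immediate early genes of the AP-1 group had 9 of 24 called higher in shNT1 and 1 higher in GFP, with a median of -0.17. NF-kB targets and chemokines had 6 of 16 and 1, with a median of -0.21, and 5 of 15 and 1 at 1 TPM or more in both groups. Of 14 genes of the RNA interference machinery, which processes hairpins, 4 were called higher in shNT1 (2 without GFP replicate 1 or 2 or shNT1 replicate 1) and none higher in GFP, with a median of -0.10 beside -0.06 for all genes. Hypoxia genes had 5 of 20 called higher in GFP and 7 higher in shNT1, and apoptosis regulators 1 and 7 of 20. The hypoxia counts were 4 and 7 among the 19 genes at 1 TPM or more in both groups. Lists of the respiratory chain, tRNA synthetases, the unfolded protein response, fatty acid synthesis, autophagy, MYC and G1 regulators, YAP targets, antigen presentation, matrix and integrins, mesenchymal transition, S100 and annexin genes and Notch had medians between -0.12 and 0.11. At 1 TPM or more in both groups, 9 of 20 S100 and annexin genes were called higher in GFP and 4 higher in shNT1. For 25 matrix and integrin genes these counts were 7 and 6, and for 16 YAP targets 2 and 6 (3 without GFP replicate 1). Of 27 unfolded protein response genes 5 were called each way. The 5 in GFP became 15 without shNT1 replicate 3 and 2 or 3 without another library. Autophagy had 3 of 30 called each way, and 5 without shNT1 replicate 3.

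The remaining genes with the largest differences belong to no list. Toward GFP these were FAM219A (1.51), the microtubule end-binding protein MAPRE3 (1.09), the extracellular matrix protein ECM1 (1.07), the glycosyltransferase GCNT2 (1.06), FAM241B (1.05) and sciellin SCEL (1.04), a protein of the cornified envelope. FAM219A was the largest of them, at 11.9 ± 1.24 TPM in GFP and 3.56 ± 0.566 TPM in shNT1 (SD, n = 3). Toward shNT1 these were the surface glycoprotein CD52 (-1.44), at 2.87 ± 0.325 and 9.56 ± 1.37 TPM in GFP and shNT1, and PHLDB2 (-1.32), a cortical microtubule anchor, at 8.26 ± 0.306 and 22.1 ± 1.46 TPM.

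CTNNB1 against shAPC sets the same vectors, days and drug against each other in libraries that the control comparison did not use. APC was lower in shAPC there, while CTNNB1 RNA was not called between these groups. Both groups also carry a perturbation of WNT signalling, which cannot be told apart there from vector, day and drug. The mean of log2(TPM + 1) over the 17 WNT target genes was 5.10 in GFP and 5.09 in shNT1. It was 5.85 in both CTNNB1 and shAPC. There 2982 of 11788 genes (25.3%) were called, 1915 (16.2%) higher in CTNNB1 and 1067 (9.05%) higher in shAPC. Leaving out shAPC replicate 3 gave 1625 calls, and leaving out CTNNB1 replicate 2 gave 1982. Over the 11558 genes compared in both, 1129 were called in the same direction, 547 higher in both ORF groups and 582 higher in both hairpin groups. That is 29.5% of the calls between the controls and 38.7% of those between the perturbed groups. Another 121 were called in opposite directions. Across genes, which are not independent replicates, the differences had a Pearson correlation of 0.521 and a Spearman correlation of 0.488. By the test of the contrast the difference was unlike between the pairs of groups for 1885 of 11741 genes (16.1%). NRF2 genes (18 of 28 called higher in CTNNB1, median 0.27) and glycolysis genes (13 of 22, median 0.26) had counts in the direction of the controls. Interferon-stimulated genes had 3 of 37 called higher in CTNNB1 and 6 higher in shAPC, with a median of -0.09. Replication genes, with 5 of 49 called higher in GFP between the controls, had 36 of 49 called higher in CTNNB1. GPX3 (contrast 2.06) and the autophagy gene GABARAPL1 were among those that differed, the latter with a difference of 0.96 between GFP and shNT1 and of -0.75 between CTNNB1 and shAPC.

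**Figure D5:**
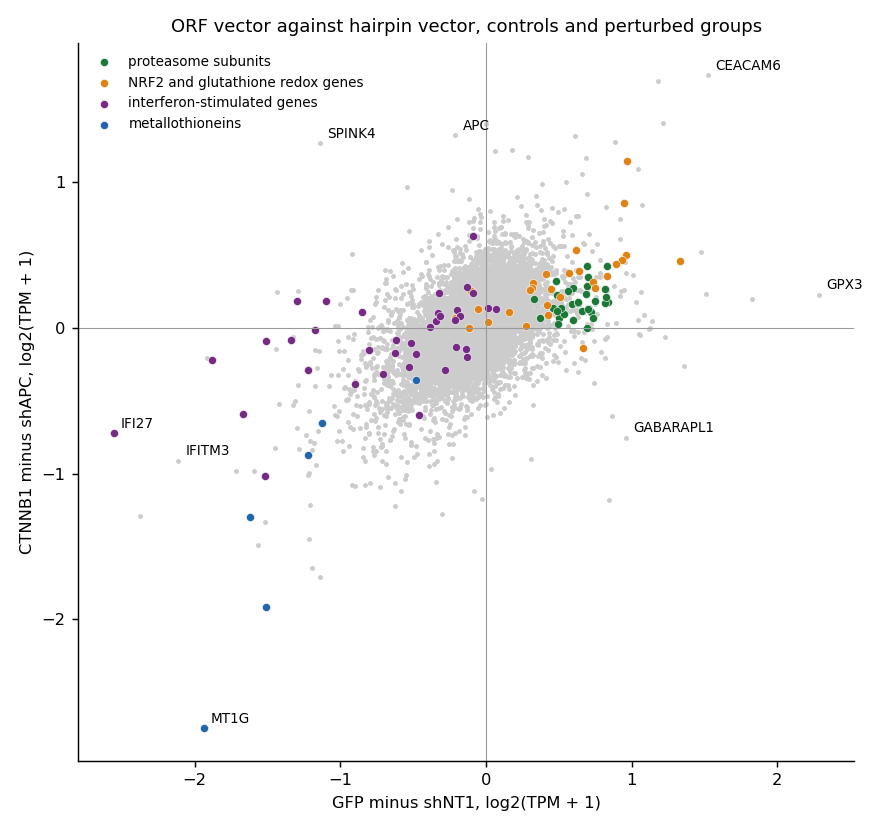
Difference of each gene between CTNNB1 and shAPC (vertical axis) against its difference between GFP and shNT1 (horizontal axis), both in log2(TPM + 1), with 4 gene lists coloured. Proteasome subunits have a median of 0.63 on the horizontal and 0.17 on the vertical axis, GPX3 is at 2.28 and 0.23, CEACAM6 is high on both, and MT1G is low on both.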

How the data were processed

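Libraries were made from mRNA with a Kapa kit, per the labels' protocols. The authors deposited TPM per gene for 12 libraries. Per the submitters' processing notes, STAR 2.7.3a, limma and hg38 were used, and the quantifier is not given in the sources used here. TPM keeps no depth, which is unknown, so no interval or floor was derived. The authors' deposited limma tables supplied gene identifiers only.

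Genes with a mean of at least 1 TPM over the 6 control libraries entered a limma fit (3.58.1, R 4.3.3) of log2(TPM + 1) with a variance trend, as deposited and after median-ratio scaling. The contrast between the control and perturbed comparisons used all 12 libraries in 1 fit. The fits were tested on simulated data. The 27 entries named as dates were kept and none is named. Values of a few list members are not reported here. The members, the 48 gene lists and the tests were chosen with earlier results of these data known.

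Named genes were the 12 largest differences in each direction among genes called under both scalings, with a mean of at least 5 TPM and no overlap, then up to 4 called members of each list described, and APC and CTNNB1. Further list members, LGALS3BP, and the genes cited as not called were picked after their values were seen, as were NRF2 members beyond the first 4. Gene identifiers were checked against GENCODE v29, and promoters came from RefSeq.

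Alternatives were another scaling, pseudocount (0.1) or filter, no variance trend, 1 fit of all 4 groups, a replicate block, a threshold of 0.01 and leaving out each library. Corrections for length and GC content, the block joined with scaling or GC, leaving out perturbed libraries, and keeping members at 1 TPM in both groups were added after seeing the data.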

Additional observations from a re-analysis of the deposited data

Results flagged for a closer look

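For 1885 of 11741 genes, the difference between the ORF and the hairpin group was unlike in the controls and in the perturbed groups, by limma's test of the contrast (GFP minus shNT1) minus (CTNNB1 minus shAPC), adjusted by Benjamini-Hochberg. Of 111 genes named here and tested in it, 58 passed this test, and 50 of them also did so after median-ratio scaling. The values below are that contrast in log2(TPM + 1). In a contrast over 4 groups a value can come from any of them, and which group moved was not tested. Many of these genes were named for their GFP minus shNT1 difference, which is part of the contrast. Their signs and the number that passed partly follow from that choice and are a description.

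Interferon-induced genes that passed were all negative: IFI27 at -1.83, DDX60 at -1.67, IFIT2 at -1.48, OASL at -1.42, IFIT3 at -1.28, HERC6 at -1.26, IFITM3 at -1.20, IFIT1 at -1.16, IFI6 at -1.07, IFI44 at -0.93, DDX58 at -0.65, ISG15 at -0.53, BST2 at -0.39, IRF1 at -0.31 and TRIM25 at -0.26. Proteasome subunits that passed were positive, with PSMB6 at 0.66, PSMC4 at 0.65, PSMD13 at 0.61, PSMB2 at 0.55, PSMA7 at 0.46 and PSMD11 at 0.41. Redox genes had both signs. GPX3 was at 2.06, OSGIN1 at 0.87, BLVRB at 0.86, SQSTM1 at 0.81, SRXN1 at 0.47, GCLM at 0.46, NQO1 at -0.18 and NFE2L2 at -0.28.

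Lysosomal and transport genes were positive, with CTSD at 0.70, GLA at 0.69, ABCG2 at 0.66, ABCB6 at 0.64 and PSAP at 0.52, and so were GAPDH at 0.31 and GABARAPL1 at 1.71. Metallothionein MT1E was at -0.47 and the AP-1 repressor JDP2 at -0.56. The ligands NRG4, at 2.20, and EGF, at 1.35, were positive. Both are above 1 TPM in GFP alone and entered the contrast through that group, so their values are a description. DUSP6 at -0.69, SPRY4 at -0.59, FGF19 at -0.61, TGFBI at -1.18, ID2 at -1.02 and ID1 at -0.29 were negative. Epithelial genes SPINK4 at -2.41, KRT17 at -1.43, ANXA13 at -1.17 and REG4 at -0.72 were negative. SPINK4 and KRT17 were higher in CTNNB1 than in shAPC, by 1.27 and 0.51, opposite to their direction in the controls. SPINK4 was at 0.606, 0 and 0.706 TPM in the shAPC libraries, near the floor. AXIN2 was at 0.56, and APC, the target of the hairpin, at -1.53. Other genes with large differences between the controls were FAM219A at 1.28, FAM241B at 1.10, MAPRE3 at 1.00, GCNT2 at 0.82, CD52 at -1.30 and PHLDB2 at -1.26.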

How the results depend on the processing

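Of 103 named genes called between the controls, 94 kept their call under every other scaling, pseudocount, filter, model or correction with all 6 libraries, 97 when any 1 was left out and 94 at an adjusted p below 0.01, and none changed sign. The 9 that lost their call under some other setting with all 6 libraries were APC, CHAC1, HIST4H4, IRF1, NEAT1, SPINK4, STAT2, TFRC and TRIM25. The number called was 3859, with 1157 higher in GFP and 2702 higher in shNT1. Leaving out 1 library gave 2375 to 4486 calls, 765 to 1689 higher in GFP and 1610 to 2797 higher in shNT1. An adjusted p below 0.01 gave 1897, 621 and 1276. Median-ratio scaling gave 2035 higher in GFP, and quantile normalization 1769 higher in shNT1. Calls of at least 2-fold numbered 99, against 209 with a pseudocount of 0.1 and 48 at a mean of at least 5 TPM. CTNNB1 against shAPC had 2982 calls and 1625 to 3491 with 1 library left out. With a replicate block 3518 genes were called between the controls, and with the block and median-ratio scaling 1808 were higher in GFP and 1587 higher in shNT1. Same-numbered GFP and shNT1 libraries did not deviate together (correlations of -0.035, -0.033 and -0.036), so the numbers give no pairing between the controls. These correlations were not computed for CTNNB1 and shAPC, where a replicate block gave 3847 calls beside 2982 without it. The cause of these changes was not tested. Without depth, the precision of low values is unknown, and 3 libraries per group limit all tests.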
